A study of Mus musculus with 16 samples.

Results

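Activated macrophages alter the use of arginine, aconitate and amino acids, and 9 genes of this chemistry were followed here. They were *Nos2* (inducible nitric oxide synthase), *Irg1* (the array's name of *Acod1*, which makes itaconate), *Il4i1* (a secreted amino acid oxidase), *Sod2* (mitochondrial superoxide dismutase), *Slc7a2* (a cationic amino acid transporter), *Gch1* (the first enzyme of tetrahydrobiopterin synthesis), *Ass1* (argininosuccinate synthase) and the arginases *Arg1* and *Arg2*. All probes of no control type that carried a member's name in the scanner files were taken, 11 of the 55681 probes of the array, with 2 probes each for *Gch1* and *Ass1*. Of the 9 genes, 6 had a probe that, in some condition, was well above background throughout (4 of 4 arrays), and these were tested among 15877 genes in all. *Slc7a2* was well above background on 1 of 16 arrays, and *Arg1* and *Arg2* on 0 of 16.

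RNA came from RAW264.7 cells, a macrophage-like mouse tumour line, so every array reports on a single cell line and not on macrophages of an animal. Cells in low serum received 20 μM cordycepin (3′-deoxyadenosine, an inhibitor of polyadenylation) or its solvent DMSO, and 60 min later LPS at 1 μg/ml, the bacterial agonist of Toll-like receptor 4, or no LPS. All cells were lysed 120 min after the first addition, which gave the conditions DMSO, cordycepin, LPS+DMSO and LPS+cordycepin with 4 replicates each. A replicate number stands for 1 culture day, on which the 4 conditions were wells of the same plate. Replicates 1 and 2 shared a scan date, called slide 1 here, and replicates 3 and 4 shared another, called slide 2. The comparisons ask how the effector mRNAs responded to LPS, and whether cordycepin altered that response.

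Macrophages convert arginine along competing routes. Nitric oxide synthase uses it with tetrahydrobiopterin as cofactor to form nitric oxide and citrulline, arginases split it to ornithine and urea, and argininosuccinate synthase starts the recycling of citrulline to arginine. Itaconate is formed in mitochondria from aconitate, an intermediate of the citric acid cycle, and is known to restrain succinate dehydrogenase and inflammatory signalling. *Il4i1* oxidises phenylalanine and other amino acids with release of hydrogen peroxide, and *Sod2* forms hydrogen peroxide from superoxide in mitochondria.

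All 10 macrophage markers examined were well above background on every array, with a summed level of 17.70 to 18.50 on the log2 scale. Of the markers of other cells, no fibroblast or epithelial marker was detected on all arrays (0 of 4 and 0 of 4). The T cell markers *Cd3e* and *Cd4*, the endothelial marker *Kdr* and 2 of 4 neutrophil markers were detected on all 16. The summed B cell markers were at 8.19 to 9.99 in LPS+cordycepin and at 5.74 to 6.67 in the other conditions, with *Ms4a1* on no array; the part of this signal in the results below was not tested. Between 37.1% and 51.2% of spots per array were well above background and 0 were saturated. Values below are log2 intensities scaled to the 75th percentile of each array, given for replicates 1 to 4 in that order and then as mean ± SD (n = 4). They measure each RNA relative to the other RNA detected on its array, and not per cell or per amount of total RNA. A smaller number of cells with the transcript and less transcript per cell thus cannot be told apart. A gene passed the test at an adjusted p under 0.05, and was called when it had also changed at least 2-fold.

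The probes and promoters that bear on the results come first. Each probe has 60 bases, of which the last 30 are printed, 5′ to 3′ on the transcript strand, for the *Nos2*, *Irg1* and *Il4i1* probes, whose genes were called, and for both *Gch1* probes, which diverged. Capitals mark AATAAA, the polyadenylation signal, or ATTTA, the core of AU-rich elements.
Nos2: actatgtacagatATTTAtacttcatattt
Irg1: tggcataagacccaaggtttcattctctat
Il4i1: atagcccacAATAAAgttatttttgttaaa
Gch1 upstream: tgaactttatgtctcatcatgaattgtatt
Gch1 downstream: agtgttcttaacaaatgcctgacatctcca
On the mm9 build of the files the probes lie at chr11:78773567-78773626 (*Nos2*, plus strand), chr14:103455171-103455231 (*Irg1*, plus strand), chr7:52096115-52096174 (*Il4i1*, plus strand), chr14:47775348-47775407 (*Gch1* upstream, minus strand) and chr14:47773797-47773856 (*Gch1* downstream, minus strand). The *Il4i1* probe thus spans the letters of a polyadenylation signal, as did 13.5% of the 21597 probes kept, and the *Nos2* probe holds ATTTA, as did 7.71%.

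Promoter sequence was read from the RefSeq table of the GRCm38.p6 assembly (250 bases before to 50 after the start of the gene), which held 5 of the 9 genes. Those of the 3 genes that passed the test with LPS and were in the table are printed, since these genes moved together. Capitals mark matches, on either strand, to the NF-kB consensus, GGAAATTCC (a shorter relative of that consensus, searched after the *Acod1* promoter had been read), TATAAA and TGANTCA.
Acod1 (Irg1): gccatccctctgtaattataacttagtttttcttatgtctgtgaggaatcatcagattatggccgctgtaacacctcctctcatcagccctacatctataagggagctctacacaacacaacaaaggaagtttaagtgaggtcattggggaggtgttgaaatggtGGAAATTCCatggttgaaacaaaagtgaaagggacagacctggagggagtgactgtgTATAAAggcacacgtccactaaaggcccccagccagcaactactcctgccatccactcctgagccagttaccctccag
Il4i1: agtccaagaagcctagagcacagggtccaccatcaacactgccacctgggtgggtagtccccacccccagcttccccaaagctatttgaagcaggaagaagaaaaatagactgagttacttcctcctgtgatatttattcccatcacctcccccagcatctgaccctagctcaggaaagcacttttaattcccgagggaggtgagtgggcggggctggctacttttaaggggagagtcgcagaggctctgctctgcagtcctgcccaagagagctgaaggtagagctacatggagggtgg
Sod2: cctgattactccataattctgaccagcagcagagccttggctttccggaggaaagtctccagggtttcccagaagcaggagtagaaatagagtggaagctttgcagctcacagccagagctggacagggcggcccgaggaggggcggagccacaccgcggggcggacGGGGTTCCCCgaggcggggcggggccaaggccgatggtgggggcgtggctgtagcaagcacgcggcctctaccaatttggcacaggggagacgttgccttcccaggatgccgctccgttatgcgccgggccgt
The windows are chr14:103046762-103047061, chr7:44836038-44836337 and chr17:13007589-13007888, all on the plus strand. *Acod1* holds GGAAATTCC from position -85 and TATAAA from position -28 relative to the start, found in 0.317% and 13.6% of all 32851 promoters. *Sod2* holds an NF-kB consensus match from -83, as did *Gch1* from -10, against 8.46% of all promoters. The *Il4i1* window holds none of these letters, nor did any of the 5 promoters hold TGANTCA, which 7.81% of all promoters contain. These are matches of letters, not measured binding.

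*Irg1* showed the largest response of the 6 tested genes. It stood at 11.28, 11.16, 10.57 and 10.29 in DMSO (10.82 ± 0.47) and at 16.13, 16.09, 16.13 and 16.13 in LPS+DMSO (16.12 ± 0.02). All LPS+DMSO arrays lay far above all DMSO arrays, and LPS raised the gene 39.3-fold (log2 change 5.30, SE 0.18, adjusted p = 1.88e-11 in limma), by 4.85 to 5.84 on single days. With cordycepin the levels were 10.84, 10.62, 10.45 and 10.33 before (10.56 ± 0.22) and 13.68, 13.82, 13.82 and 13.92 after LPS (13.81 ± 0.10). LPS thus still raised *Irg1* by 9.49-fold in cordycepin (log2 change 3.25, SE 0.18, adjusted p = 8.11e-09), to a level below that of every LPS+DMSO array. LPS+cordycepin was lower than LPS+DMSO by 4.97-fold (log2 change -2.31, SE 0.18, adjusted p = 1.73e-07), and on the 4 days by -2.46, -2.27, -2.31 and -2.21. Without LPS cordycepin left it 0.26 lower on the log2 scale (log2 change -0.26, 95% interval -0.64 to 0.12, adjusted p = 0.382), which did not pass the test.

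*Il4i1* followed the same order of conditions on a smaller scale. Its levels were 7.18, 6.31, 7.57 and 6.83 in DMSO (6.97 ± 0.53) and 9.14, 9.37, 9.08 and 9.24 in LPS+DMSO (9.21 ± 0.12), so that the groups were well apart. The rise was 4.72-fold (log2 change 2.24, SE 0.19, adjusted p = 4.93e-07). In cordycepin it stood at 6.90, 6.81, 6.92 and 6.76 (6.84 ± 0.08) and in LPS+cordycepin at 7.55, 7.56, 7.65 and 7.47 (7.56 ± 0.07). These last 4 arrays were all above cordycepin alone, by 0.72 on the log2 scale (1.64-fold, adjusted p = 0.0260, below the 2-fold limit), and all below LPS+DMSO, by 3.13-fold (log2 change -1.65, SE 0.19, adjusted p = 7.94e-06). Replicate 3 of DMSO (7.57) was as high as the LPS+cordycepin arrays. At rest, cordycepin and DMSO did not differ beyond the spread (log2 change -0.13, 95% interval -0.52 to 0.27).

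*Nos2* was less uniform. DMSO arrays read 8.49, 9.26, 8.15 and 8.04 (8.49 ± 0.55) and LPS+DMSO arrays 9.10, 8.99, 9.07 and 10.22 (9.35 ± 0.59), and the groups overlapped through replicate 2 of DMSO. The LPS effect was 1.82-fold (log2 change 0.86, SE 0.28, adjusted p = 0.0481), positive on 3 of 4 days and -0.27 on day 2, and it missed the test with the culture day as a block (adjusted p = 0.0532). Without replicate 2 of DMSO it was 1.12 and without the whole of replicate 2 it was 1.24, both past the call. It was 0.42 without replicate 4 (adjusted p = 0.315), 0.57 without the single array of LPS+DMSO replicate 4 (adjusted p = 0.133) and 0.17 within slide 1 (adjusted p = 0.824), all short of the test. Cordycepin arrays read 8.18, 8.02, 8.07 and 8.28 (8.14 ± 0.11) and LPS+cordycepin arrays 8.37, 7.98, 8.20 and 8.58 (8.28 ± 0.25), which overlapped (log2 change 0.15, 95% interval -0.44 to 0.74, adjusted p = 0.873). LPS+cordycepin was below LPS+DMSO on every array, by 2.09-fold (log2 change -1.06, SE 0.28, adjusted p = 0.0120). This change was just past 2-fold. The call was lost without replicate 1 (adjusted p = 0.0563), replicate 3 (adjusted p = 0.0629) or replicate 4 (log2 change -0.87, under 2-fold), without the single array of LPS+DMSO replicate 4 (-0.77) or LPS+cordycepin replicate 2 (-0.96), and within slide 1 (-0.87, adjusted p = 0.109), while its direction was the same each time.

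*Sod2* (probe at chr17:13208074-13208133, plus strand) had little spread between days. Its levels were 15.11, 15.26, 15.03 and 14.97 in DMSO (15.09 ± 0.12), 15.18, 15.24, 15.02 and 14.99 in cordycepin (15.11 ± 0.12), 16.16, 16.02, 15.98 and 15.82 in LPS+DMSO (15.99 ± 0.14) and 15.63, 15.51, 15.46 and 15.54 in LPS+cordycepin (15.53 ± 0.07). The 2 unstimulated groups overlapped, LPS+cordycepin lay above them, and LPS+DMSO lay above all. LPS raised *Sod2* by 1.87-fold in DMSO (log2 change 0.90, SE 0.09, adjusted p = 6.61e-06) and by 1.34-fold in cordycepin (log2 change 0.43, adjusted p = 0.00897), and cordycepin lowered it by 1.37-fold in LPS-treated cells (log2 change -0.46, adjusted p = 0.00219). All 3 changes passed the test and none reached 2-fold. Scaled to the spiked-in controls, the 3 estimates had the same signs (0.80, 0.12 and -0.61) and none passed (adjusted p = 0.458, 0.830 and 0.665).

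**Figure D1:**
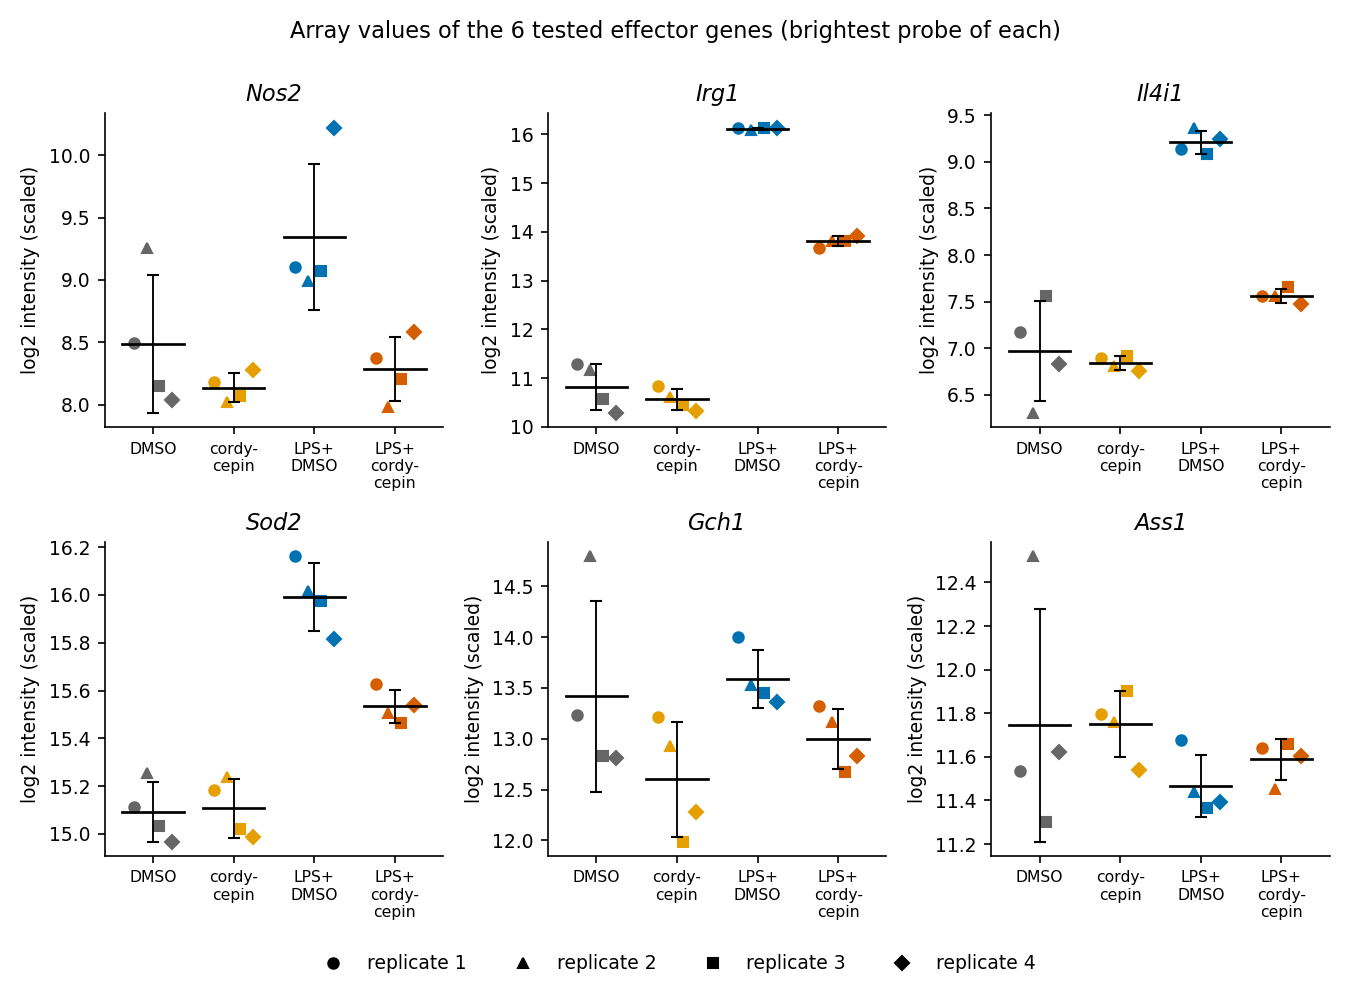
Scaled log2 intensity of the brightest probe of each of the 6 tested genes on the 16 arrays; symbols mark the replicate (culture day), the bar the mean and the whiskers the SD of the 4 arrays, and each panel has its own axis. *Irg1*, *Il4i1* and *Sod2* show the order LPS+DMSO over LPS+cordycepin over the unstimulated conditions, and replicate 2 of DMSO stands high for *Nos2*, *Gch1* and *Ass1*.

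Across the members, 2 of 6 were called with LPS in DMSO (*Irg1* and *Il4i1*, both raised), where 4.59% of all genes were called and 2.09% raised. With *Nos2* and *Sod2*, which stayed under 2-fold, 4 of 6 passed the test upward, against 5.14% of all genes. This count was 3 with normexp background correction and 2 with scaling to spiked-in controls. In LPS+cordycepin against LPS+DMSO 3 of 6 were called, all lower (*Irg1*, *Il4i1* and *Nos2*), where 7.46% of all genes were called but 1.52% were called lower. With *Sod2* 4 of 6 passed the test downward, against 8.45% of all genes, and 2 of 6 with spiked-in controls. Over all genes 242 of 1184 calls in this comparison were downward, beside 3 of 3 among the members, which were chosen with these results known. In LPS+cordycepin against cordycepin 1 of 6 was called (*Irg1*), against 2.91% of all genes, and with *Il4i1* and *Sod2* 3 of 6 passed the test upward, against 3.54%, and 1 of 6 with spiked-in controls. In cordycepin against DMSO 0 of 6 were called by limma, against 5.55% of all genes, and 1 of 6 (*Gch1*) had an unadjusted p under 0.05. Comparisons that share a condition also share its arrays, so these counts are not independent.

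Whether the LPS response itself differed with cordycepin was tested by the interaction, the log2 LPS response of cordycepin-treated cells minus that of DMSO-treated cells. It was called for 2 of 6 genes, against 0.365% of all genes. For *Irg1* the response was smaller by 2.05 on the log2 scale (interaction -2.05, SE 0.25, adjusted p = 0.00135), and by -2.02, -1.73, -2.20 and -2.26 on the 4 days. For *Il4i1* it was -1.52 (SE 0.26, adjusted p = 0.0129), with -1.31, -2.31, -0.78 and -1.70 on the 4 days. The *Irg1* interaction missed the threshold within slide 1 (-1.87, adjusted p = 0.0640) and without replicate 3 (adjusted p = 0.0621), and that of *Il4i1* without replicate 1 (adjusted p = 0.129) or 4 (adjusted p = 0.247) and within either slide (-1.81 and -1.24, adjusted p = 0.338 and 0.262). Scaled to the spiked-in controls both missed it (*Irg1* -2.26, adjusted p = 0.0608, and *Il4i1* -1.74, adjusted p = 0.717). Without the filter on dim probes *Il4i1* also missed it (adjusted p = 0.0897). *Sod2* (-0.47, adjusted p = 0.173) and *Nos2* (-0.71, adjusted p = 0.774) had negative estimates that did not pass.

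**Figure D2:**
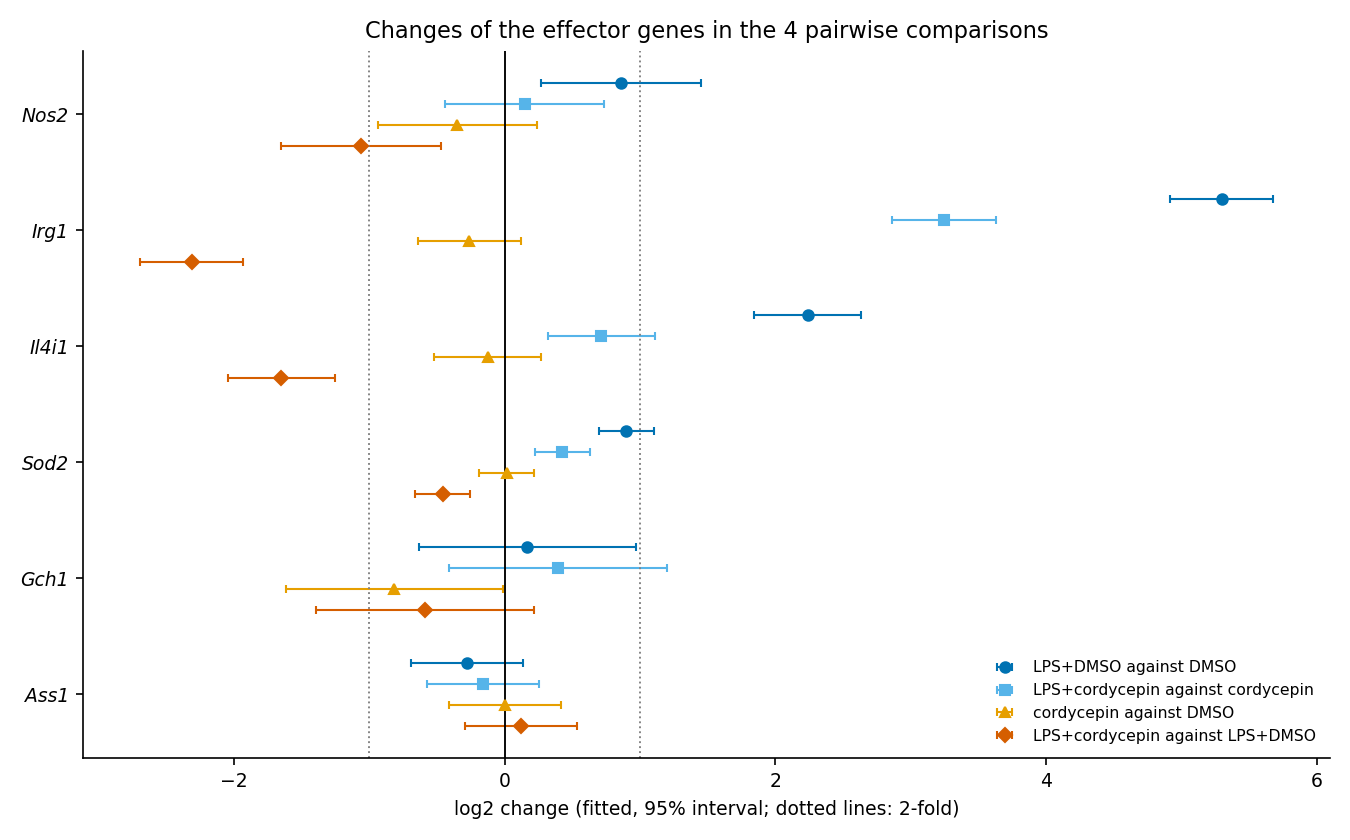
Fitted log2 change of each tested gene in 4 comparisons, with the 95% interval of the limma fit; dotted lines mark 2-fold. The intervals of *Irg1* and *Il4i1* lie beyond 2-fold upward for LPS+DMSO against DMSO and downward for LPS+cordycepin against LPS+DMSO, while every interval for *Ass1* includes 0.

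*Gch1* and *Ass1*, whose enzymes supply the cofactor and recycle citrulline, passed the test in no comparison of the main fit, which used the brightest probe. *Ass1*, read by 2 neighbouring probes at chr2:31376068-31376127 and chr2:31375998-31376057 (mm9, plus strand), stood at 11.54, 12.52, 11.30 and 11.62 in DMSO (11.75 ± 0.53) and at 11.68, 11.44, 11.36 and 11.39 in LPS+DMSO (11.47 ± 0.14). It read 11.80, 11.76, 11.90 and 11.54 in cordycepin (11.75 ± 0.15) and 11.64, 11.45, 11.66 and 11.60 in LPS+cordycepin (11.59 ± 0.09). All conditions overlapped, no comparison passed, and the LPS estimate of -0.28 (95% interval -0.69 to 0.13) was -0.02 without replicate 2 of DMSO. The other *Ass1* probe was likewise highest on that array (11.09, against 9.93 to 10.32 on the other DMSO arrays).

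In the comparisons of cordycepin with DMSO, with and without LPS, *Gch1* gave opposite signs at its 2 probes, which lie 1551 bases apart in the same transcript, the upstream one starting at base 926 and the downstream one at base 2477. At the upstream probe, the brighter one, DMSO read 13.23, 14.80, 12.83 and 12.81 (13.42 ± 0.94) and cordycepin 13.21, 12.93, 11.99 and 12.28 (12.60 ± 0.57). LPS+DMSO read 14.00, 13.53, 13.45 and 13.36 (13.59 ± 0.29) and LPS+cordycepin 13.32, 13.17, 12.67 and 12.83 (13.00 ± 0.30). LPS+cordycepin was lower than LPS+DMSO on each of 4 days and the groups did not overlap, yet the fitted change of -0.59 (SE 0.38, adjusted p = 0.355) did not pass. Without replicate 2 of DMSO the SE was 0.25 (adjusted p = 0.115), and over 19 other settings the adjusted p ran from 0.0152 to 0.743. It ran from 0.0167 to 0.981 in cordycepin against DMSO, from 0.0343 to 0.9999 with LPS in DMSO and from 0.0405 to 0.996 with LPS in cordycepin. The LPS change was 0.17 (95% interval -0.63 to 0.97), and 0.63 without replicate 2 of DMSO (adjusted p = 0.141).

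At the downstream *Gch1* probe, DMSO read 7.84, 8.67, 7.32 and 7.22 (7.76 ± 0.66) and cordycepin 8.90, 8.70, 8.50 and 8.34 (8.61 ± 0.24). LPS+DMSO read 8.17, 8.0008, 7.04 and 7.78 (7.75 ± 0.50) and LPS+cordycepin 8.95, 8.91, 8.75 and 8.45 (8.76 ± 0.23), above every LPS+DMSO array. In a fit of every probe on its own, LPS+cordycepin was 2.02-fold over LPS+DMSO (log2 change 1.01, SE 0.29, adjusted p = 0.0208), where 7.11% of the 21597 probes were called raised. This call was lost without replicate 1 (adjusted p = 0.0669) or 3 (adjusted p = 0.147), without LPS+DMSO replicate 3 (adjusted p = 0.0743) or LPS+cordycepin replicate 1 (adjusted p = 0.0546) or 2 (adjusted p = 0.0509), within slide 1 (adjusted p = 0.115), with quantile normalization (adjusted p = 0.0627) and with spiked-in controls (0.86, adjusted p = 0.254). In cordycepin against DMSO the probe changed by 0.85 (1.80-fold, adjusted p = 0.0603, or 0.0124 with the culture day as a block), and by 1.15 without replicate 2 of DMSO (adjusted p = 0.00365). It was 0.54 within slide 1 (adjusted p = 0.312), 0.91 with spiked-in controls (adjusted p = 0.253) and 0.67 to 1.15 with replicates or arrays left out. With LPS alone it changed by -0.01 (95% interval -0.63 to 0.61).

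The change of the downstream probe relative to the upstream one was then fitted for the 2487 genes with 2 probes of the same transcript, a test chosen after the *Gch1* values were seen. For *Gch1* this difference of log2 values was higher by 1.60 in LPS+cordycepin than in LPS+DMSO (SE 0.22, adjusted p = 0.000125), and by 1.45, 1.27, 2.48 and 1.20 on the 4 days. It was higher by 1.66 in cordycepin than in DMSO (SE 0.22, adjusted p = 0.000114), and by 1.07, 1.90, 2.02 and 1.66 on the 4 days. The groups with and without cordycepin did not overlap in either case, and 4.58% and 3.50% of the 2487 genes were called in this direction. LPS changed the difference by -0.18 in DMSO (95% interval -0.66 to 0.29). Leaving out any replicate or array kept the call, with 1.31 to 1.74 in LPS-treated cells and 1.49 to 1.86 in resting cells. For *Ass1*, whose 2 probes adjoin, no comparison passed (0.03 in cordycepin against DMSO, 95% interval -0.12 to 0.19).

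**Figure D3:**
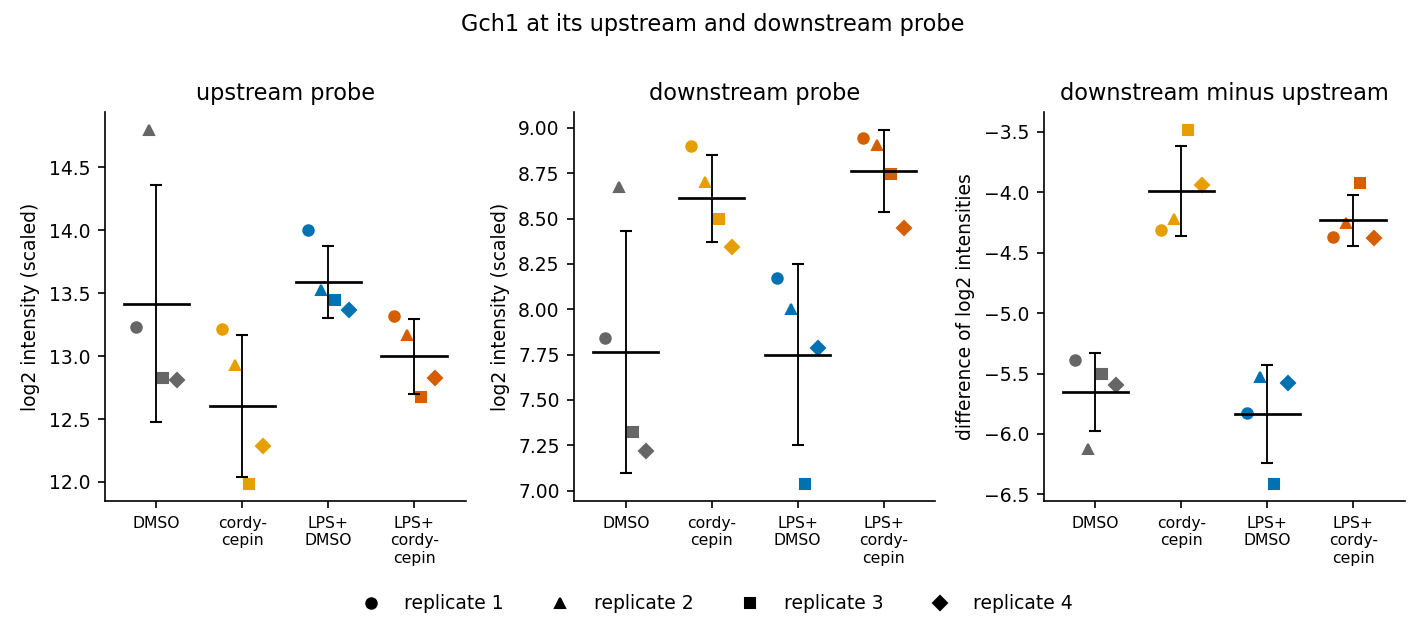
*Gch1* on the 16 arrays at the upstream probe, at the downstream probe (scaled log2 intensity) and as downstream minus upstream (difference of log2 intensities). Only changes of this difference between conditions are read, since probe affinity was not measured and the cause of its level was not tested. Symbols mark the replicate, bars the mean and whiskers the SD (n = 4). In the third panel all arrays with cordycepin lie above all arrays without it.

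The arginine uptake and arginase members were at the limit of detection. The dimmest probes well above background stood at 4.11 to 6.32 on the same scale, depending on the array. *Slc7a2* (chr8:42002869-42002928, plus strand) was detected only on replicate 4 of cordycepin, at 5.10, and its other 15 arrays read 2.91 to 4.80. *Arg1* (chr10:24636194-24636253, minus strand) read 2.43 to 4.16 and *Arg2* (chr12:80252972-80253031, plus strand) likewise 2.43 to 4.16, with no array well above background. A change in these 3 genes was not detectable, which does not show that they were absent.

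Of 103 other genes listed for these pathways, 88 were tested. With LPS in DMSO 0 of 88 were called by limma against 4.59% of all genes. The test was passed upward by 4 of 88, all within 2-fold, where 5.14% of all genes passed it upward. With scaling to spiked-in controls 0 of 88 passed. The 4 genes were all among the 17 tested of the arginine, nitric oxide and polyamine list, which was singled out after the values were seen. They were *Sat1*, which acetylates polyamines for export (log2 change 0.97, SE 0.15, adjusted p = 0.000271), *Odc1*, the rate-limiting enzyme of polyamine synthesis (0.88, adjusted p = 0.000580), *Ddah2*, which is held to degrade methylarginines (0.74, adjusted p = 0.00608), and *Oat*, ornithine aminotransferase (0.67, adjusted p = 0.00983). Each rose on 4 of 4 days. In LPS+cordycepin against LPS+DMSO *Odc1* (-0.48, adjusted p = 0.0313), *Sat1* (-0.48, adjusted p = 0.0344) and *Azin1*, the antizyme inhibitor that protects ornithine decarboxylase (-0.48, adjusted p = 0.0366), fell on 4 of 4 days, and each of the 3 missed the threshold in 11 of 26 other settings. The median of this list was 0.11 with LPS (-0.04 over all genes) and -0.13 with cordycepin on top of LPS (0.03 over all genes).

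Of the 88 listed genes tested, 2 (*Ddah2* and *Slc7a3*) were called higher with cordycepin, both in LPS-treated and in resting cells. Of all genes 5.93% and 4.49% were called raised there. The members called in LPS-treated cells were lower, and in resting cells 0 of 6 members were called. *Ddah2* rose 2.25 on the log2 scale in cordycepin against DMSO (8.28 ± 0.31 to 10.53 ± 0.23, adjusted p = 1.56e-07) and 1.37 in LPS+cordycepin against LPS+DMSO (9.02 ± 0.15 to 10.39 ± 0.26, adjusted p = 1.61e-05). *Slc7a3*, a cationic amino acid transporter that carries arginine, was not well above background on any of the 8 arrays without cordycepin and was on all 8 with it (8.18 ± 0.31 in cordycepin and 8.59 ± 0.35 in LPS+cordycepin). Its probe thus entered the test only through the arrays on which it is high, so its call is a description. It was at least 8.65-fold higher in cordycepin than in DMSO and at least 10.4-fold higher in LPS+cordycepin than in LPS+DMSO. These limits set the mean of the bright group against the dimmest detectable level of each array of the dim group.

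No gene of the remaining lists was called. None of the 6 tested tetrahydrobiopterin genes was called in any comparison. None of 24 citric acid cycle genes was called in any comparison. Their median change was 0.13 in LPS+cordycepin against LPS+DMSO (0.03 over all genes) and 0.17 in cordycepin against DMSO (0.04 over all genes). It was -0.07 in LPS+cordycepin against cordycepin, beside -0.05 over all genes. None of 11 amino acid catabolism genes tested and none of 19 superoxide and peroxide genes was called in any comparison. *Cybb*, a membrane subunit of the phagocyte NADPH oxidase, had a log2 change of 1.23 with LPS that was positive on 4 of 4 days and did not pass (adjusted p = 0.0631). With the 75th percentile over all probes 1 of the 19 was called with LPS and 3 passed upward. Over the 88 genes the median was 0.06 in LPS+cordycepin against LPS+DMSO, beside -0.83 over the 6 members tested.

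**Figure D4:**
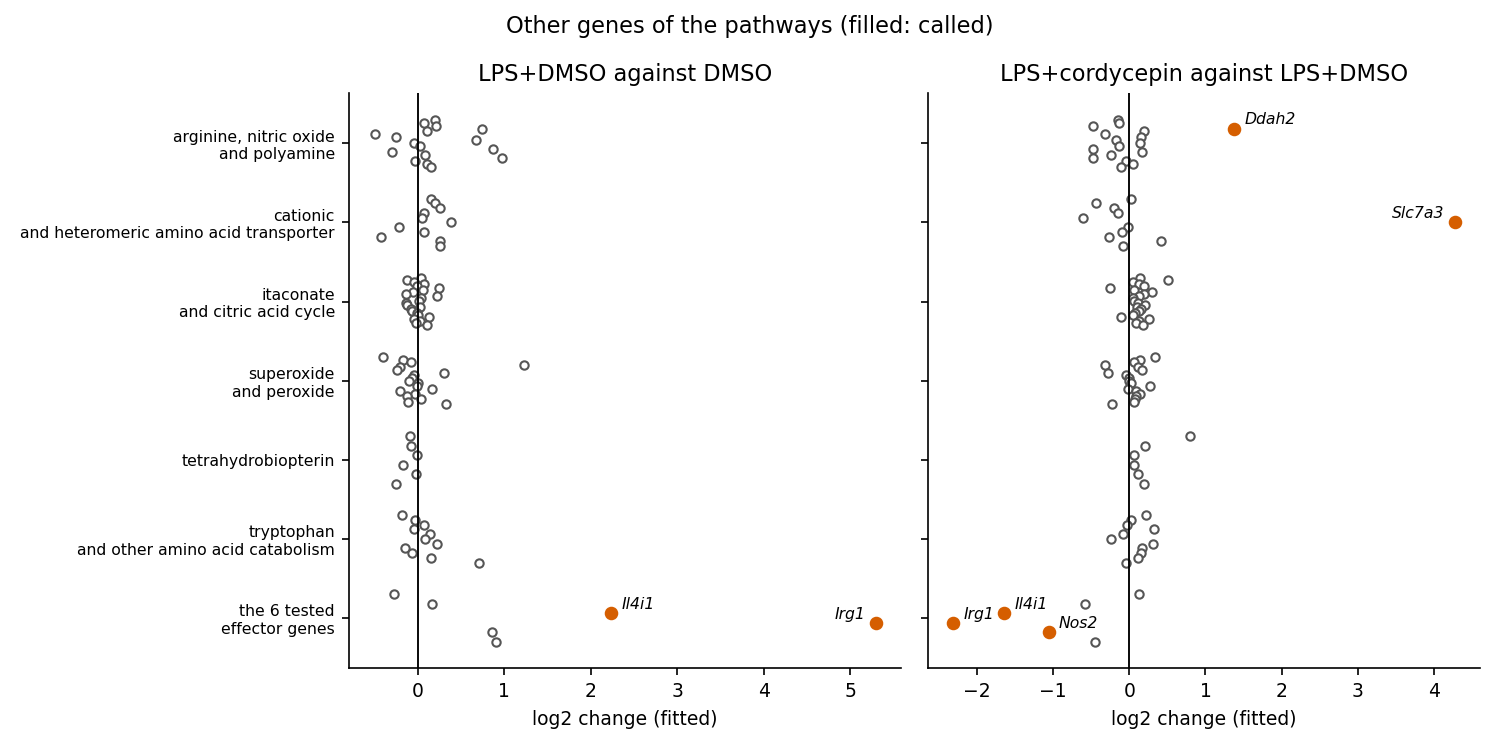
Fitted log2 change of each tested gene of the 6 pathway lists and of the 6 tested effector genes, with LPS (left) and with cordycepin in LPS-treated cells (right); filled points with a name were called. The effector genes called with LPS lie at 2.24 and 5.30, and *Ddah2* and *Slc7a3* are the listed genes called with cordycepin.

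The genes most like each member over the 16 arrays were found by Pearson correlation among 11601 genes with a symbol, given as a description since the arrays share conditions and days. *Irg1* was closest to *Ccl2* (r = 0.994), *Traf1* (r = 0.994) and *Fosl2* (r = 0.990), and *Il4i1* to *Hmgcs1* (r = 0.983), *Hcar2* (r = 0.972) and *Cd83* (r = 0.960). *Sod2* was closest to *Slpi* (r = 0.973), to the member *Irg1* (r = 0.968) and to *Slc20a1* (r = 0.962). *Nos2* had weaker matches, with *Agpat4* (r = 0.896), *Slc16a10* (r = 0.892) and *Olfr1417* (r = 0.879). *Gch1* at its upstream probe was closest to *H2bc8* (r = 0.946), *Zfp975* (r = 0.935) and *Plin2* (r = 0.929), and *Ass1* to *Gstp1* (r = 0.935), *Mrpl24* (r = 0.916) and *1700088E04Rik* (r = 0.909).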

How the data were processed

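Total RNA was labelled with Cy3 by a kit that primes from the poly(A) tail, and the part of tail length in the values was not tested. The scanner files deposited by the authors hold intensity per spot from Agilent Feature Extraction 10.10.1.1, background-subtracted and not normalized between arrays. A value table deposited by the authors (log2, method unstated in the sources used here, correlation with the scanner values 0.995 to 0.998) served as an alternative.

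The processed intensity of 59305 spots was log2-transformed, 108 to 237 outlier spots per array were left out, spots of a probe were averaged (10 for *Irg1*, 2 for *Nos2*), and each array was scaled to the 75th percentile of those 18064 probes that every one of the 16 arrays measured well above background. A probe was kept if it was well above background throughout some condition, and the brightest represented its gene. Probes took names by accession (27639), symbol (3406) or synonym (321), and 24304 kept the file's name. limma 3.58.1 (R 4.3.3) fitted the 4 means, with Benjamini-Hochberg adjustment over 15877 genes. Tested on simulated data of LPS+cordycepin against LPS+DMSO, it recovered 96.5% of 200 changed genes with 2 false calls. The planted changes were all beyond 2-fold and the simulated noise was independent between arrays. The simulation therefore does not bear on changes near 2-fold or on spread shared within a culture day or slide.

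Named were the members, other pathway genes called in any comparison (others in small counts were chosen after their values were seen) and the 3 genes most correlated with each member. The members and lists were chosen with earlier results of these data known. Array residuals of the same culture day correlated by 0.197 on average (20 of 24 pairs over 0.1), those of other days on the same slide by 0.176 (19 of 24) and those of the other slide by -0.187, and the labels give the pairing. Python 3.11.15 with pandas 2.3.3 read the files. Alternatives covered scaling, background correction, the value table, filters, probe choice, blocks, variance model, test, thresholds and left-out arrays.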

Additional observations from a re-analysis of the deposited data

Results flagged for a closer look

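The LPS response of *Irg1* differed with cordycepin by -2.05 on the log2 scale and that of *Il4i1* by -1.52, both by the interaction test of the limma fit. Among 32 groups of 4 arrays (8 probes in 4 conditions), 2 had an array far from the other 3 by Dixon's ratio, where chance gives about 1.6. *Nos2* in LPS+DMSO stood at 10.22 in replicate 4, with the others at 8.99 to 9.10. *Irg1* in LPS+DMSO stood at 16.09 in replicate 2, with the others at 16.13, a gap of a few hundredths that matters for no comparison.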

How the results depend on the processing

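The counts of called members were taken under 19 other settings (18 for the interaction) and with arrays left out. With no minimum fold 4 members passed with LPS in DMSO and 3 with LPS in cordycepin. In the interaction the count was 0 with scaling to spiked-in controls and within slide 1, and 1 without the filter on dim probes, within slide 2 and at an adjusted p under 0.01. Leaving out replicates or arrays gave 2 to 3 called members for LPS, 2 to 3 for LPS+cordycepin against LPS+DMSO, 1 to 1 for LPS+cordycepin against cordycepin, 0 to 0 for cordycepin against DMSO and 1 to 2 for the interaction. With the culture day as a replicate block the counts were 2, 3, 1, 0 and 2 in that order, the same as without the block, and no other call changed. Without a block or with it, the *Nos2* call in LPS+cordycepin against LPS+DMSO held, but it was lost with normexp background correction (log2 change -0.83), spiked-in controls (adjusted p = 0.0578), the methods' t-test (adjusted p = 0.0814) and at an adjusted p under 0.01.

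Changes of sign were limited to estimates that did not pass the test, and their cause was not tested. Of LPS in DMSO, *Gch1* was -0.25 within slide 1 and -0.032 to 0.65 with arrays left out. Of LPS+cordycepin against LPS+DMSO, *Ass1* was -0.0013 with the percentile over all probes, -0.032 with spiked-in controls and -0.0099 within slide 1, and *Gch1* was 0.21 with the mean of its probes, which diverge. Of cordycepin against DMSO, *Sod2* was -0.046 with the percentile over all probes and with quantile normalization, -0.066 in the authors' table and -0.029 to 0.070 with arrays left out. There, *Ass1* was -0.057 with the percentile over all probes, -0.011 with the mean of its probes, -0.25 within slide 1 and -0.19 to 0.26 with arrays left out. *Il4i1* was 0.11 within slide 1 and -0.35 to 0.073 with arrays left out, *Nos2* was 0.080 within slide 2, and *Gch1* was 0.017 with the mean of its probes. Of LPS+cordycepin against cordycepin, *Nos2* was -0.16 with spiked-in controls. Of the interaction, *Ass1* was -0.10 with spiked-in controls, -0.0062 within slide 2 and -0.14 to 0.27 with arrays left out, and *Gch1* was -0.23 to 0.52 with arrays left out.

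Scaling to the spiked-in controls moved the median of all genes to -0.14 with LPS, to -0.12 in LPS+cordycepin against LPS+DMSO and to -0.36 in LPS+cordycepin against cordycepin. In these 3 comparisons *Irg1*, *Il4i1* and *Sod2* kept their signs. *Il4i1* in LPS+cordycepin against cordycepin (0.40, adjusted p = 0.652) no longer passed, nor did *Sod2* in any of the 3 (adjusted p = 0.458, 0.665 and 0.830). With 4 arrays a condition, changes near the spread of the DMSO arrays (SD 0.94 for *Gch1*) could not be resolved.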
